A study of Drosophila melanogaster with 2 samples.

Results

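The odorant and gustatory receptor genes of Drosophila melanogaster were examined for binding of ADD1, a chromatin protein with an ADD domain like that of mammalian ATRX, known from heterochromatin. The genes were selected by symbol in the Ensembl annotation, as Or or Gr followed by a number and a letter, together with Orco. This gave 120 protein-coding genes out of 18277 genes on the chromosome arms, of which 59 were Or genes, 60 were Gr genes and 1 was Orco. The data came from chromatin immunoprecipitation sequencing of whole mixed-sex embryos, 0 to 16 h of age, with sonicated chromatin of 200 to 800 bp. The single group was the strain ADD1-MiMIC-GFP, in which an eGFP exon within an intron tags the endogenous ADD1 gene, and the precipitating antibody was directed at GFP, while a separate antibody field names CG8290, the systematic name of ADD1. Both libraries are biological replicates, numbered 1 and 3, of this line. No other genotype and no control list entered the analysis, so what an untagged embryo would show at these genes was not tested. Whole embryos mix all cell types, so a signal confined to few cells cannot be told apart from a weak signal in many.

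Odorant receptors are membrane proteins that each olfactory neuron makes in a narrow choice, alongside the co-receptor Orco, with which they form an odour-gated ion channel. Gustatory receptors belong to the same superfamily and detect sugars, bitter compounds, carbon dioxide and, for Gr28b, warmth. Both classes are made in small numbers of differentiated sensory neurons, best known from the larva and the adult.

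A call is a region in the authors' list of peaks and background, and its rank is its place in that list by the authors' signal value, with 1 the strongest. Each list, whether of a replicate or of the pooled replicates, holds 30000 calls, and an optimal peak is one of the 4402 pooled calls that passed the authors' threshold of irreproducible discovery rate (IDR). These were the 4402 strongest pooled calls, with signal of at least 96.4 against 25.8 for the weakest pooled call. The lists hold background by design, so a weak call late in the list is not by itself evidence of binding. A gene was counted when a summit lay 500 bp or less from any of its starts.

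Few receptor genes had an ADD1-GFP call at a start, and the number with an optimal peak was 0. A pooled call was found at 9 of 120 receptor genes (7.50%, 95% exact interval 3.49 to 13.8%), where 44.5% of all genes had one. Optimal peaks were at 0 of 120 (exact interval up to 3.03%, and up to 2.50% by the limit of 3 counts), where 19.0% of all genes had one. Among Or genes 4 of 59 had a pooled call (6.78%), among Gr genes 5 of 60 (8.33%), and Orco had none. Among protein-coding genes, to which every receptor gene belongs, the shares were 49.3% for pooled calls and 22.9% for optimal peaks. Among protein-coding genes outside the list, the share with a call differed with the annotation of starts, while among receptor genes it hardly did. Of the receptor genes, 82 start at their first coding base in the annotation, and 6 of them had a pooled call (7.32%), while 42 of the 420 other protein-coding genes annotated in this way had one, so the share in these receptor genes lay near that background. Of the 38 receptor genes with annotated sequence before the first coding base, 3 had a call (7.89%), while 50.9% of other such genes had one. Optimal peaks, at 0 of the receptor genes of either kind, were at 1.90% of the other genes starting at the first coding base and 23.8% of those with sequence before it. What part the placing of starts has in the low count was not tested. No test of the list was made, because its genes were taken with earlier results of these data known. The count depended on the distance allowed, with 5 genes at 200 bp and 19 genes at 1000 bp, beside 33.3% and 51.5% of all genes.

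**Figure D1:**
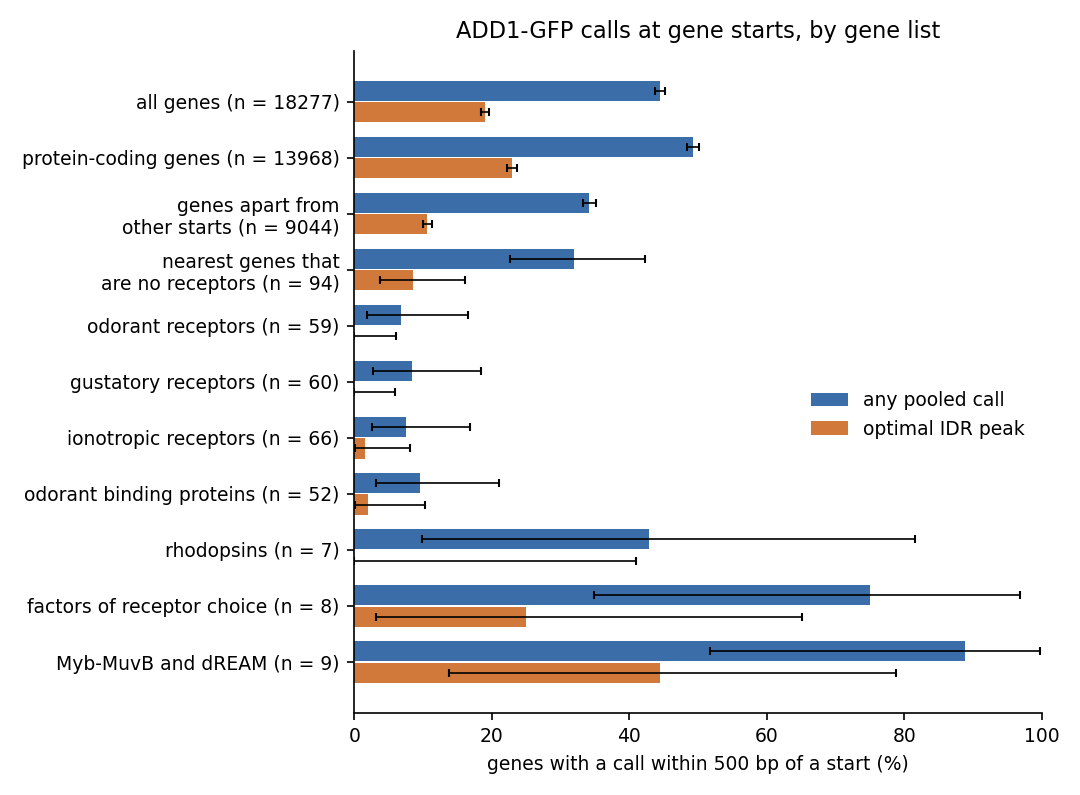
Percentage (x axis) of the genes of each list (y axis, with n) that had any pooled call (blue) or an optimal IDR peak (orange) within 500 bp of a start. Bars start at 0 and whiskers are 95% exact binomial intervals for counting error only. The Or and Gr bars stand at 6.78% and 8.33% for pooled calls and at 0 for optimal peaks, beside 44.5% and 19.0% of all genes.

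The 9 genes held 13 calls, 2 each at Gr97a, Gr39a, Gr93d and Or82a and 1 each at the other 5. Where a gene had 2, they overlapped, so that the 13 calls form 9 separate stretches. They made up 0.141% of the 9193 pooled calls near any gene start, while the 135 starts of receptor genes made up 0.560% of all 24111 starts. The median rank of the best call per gene was 13500, against 5444 over all genes with a call. Of the 13 calls, 2 were in the first 10000 ranks and 6 (46.2%) were beyond rank 20000, a part of the list that held 19.1% of calls near any start. The authors' −log10 q-value, larger for stronger evidence, was 2.22 at the best call of Gr97a and 1.52 at that of Gr63a. At the best calls of Gr39a, Gr93d and Or82a it was 0.869, 0.636 and 0.599. The lowest value was 0.206, at the second call of Gr93d. At such low values a call is not by itself evidence of binding. Summits lay downstream of the nearest start of the gene for 8 calls and upstream for 5, and 9 of the 13 were within the span of the receptor gene. By annotation of any gene, 8 were in exons, 2 in introns and 3 between genes.

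**Figure D2:**
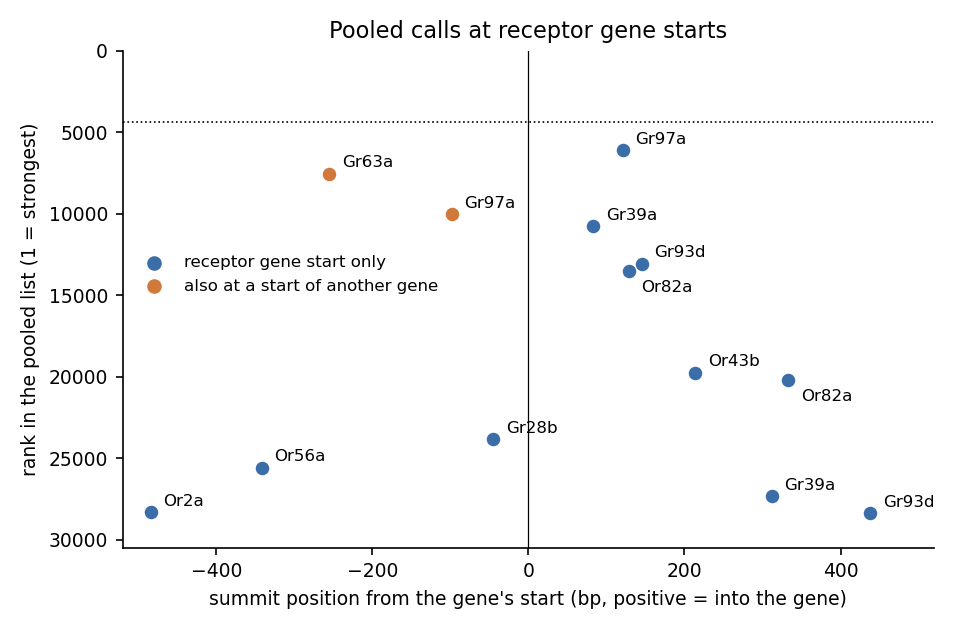
Each of the 13 pooled calls at receptor gene starts, by the position of its summit from the start along the gene (x axis, bp) and its rank in the pooled list (y axis, 1 at the top). The dotted line is the lowest rank of an optimal peak (4402), and every point lies below it. Orange points (Gr63a and the upstream call of Gr97a) also lie at a start of another gene.

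Among odorant receptors, Or82a had the strongest call within 500 bp of a start. Or82a, a receptor for the fruity ester geranyl acetate, lies on 3R from 4256972 to 4258444 on the plus strand. Its stronger call (3R, 4256889 to 4257312, signal 44.7, rank 13500) had the summit in an exon 129 bp into the gene, and the weaker one (rank 20228) in an intron, 333 bp in. In the separate lists the gene ranked 20370 in replicate 1 (signal 19.5) and 12915 in replicate 3 (signal 25.3). Both replicates thus listed the call, with summits within 20 bp of the pooled one, and replicate 3 ranked it higher.

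Or43b had a call in an exon, 214 bp into the gene (rank 19747). It ranked 9172 in replicate 1 (signal 30.7) and had no call within 500 bp of the start in replicate 3. Or56a, the receptor for the mould odour geosmin, had a call 342 bp upstream (rank 25585), absent from replicate 1 and at rank 29710 in replicate 3. Or2a had one 484 bp upstream, in an exon of fs(1)K10, at rank 28307 and, in replicate 3, 26190. Apart from Or82a, each odorant receptor call was thus present in 1 replicate list. Orco had no call in any list, with the nearest pooled summit 16567 bp from a start and the nearest optimal peak 38713 bp away, whose nearest start belongs to Polr2F, an RNA polymerase II subunit gene. Of 25 receptors known from olfactory neurons of the larva, 2 had a pooled call (Or82a and Or2a), and so did 2 of the other 34.

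Among gustatory receptors, Gr97a had the strongest call within 500 bp of a start, which was also the strongest such call of all 120 genes. Gr97a lies on 3R from 26965124 to 26966485 on the minus strand, 445 bp from the divergent start of CG5521. Its stronger call (3R, 26966152 to 26966575, signal 76.8, rank 6100) had the summit in its exon 121 bp into the gene and was not within 500 bp of a start of any other gene. Its second call (rank 10037) had the summit between both genes, 98 bp from Gr97a and 347 bp from CG5521, and cannot be given to either. Gr97a ranked 5790 in replicate 1 (signal 40.5) and 8032 in replicate 3 (signal 35.1), so both libraries placed it above the middle of the list and below the 4402 strongest. In replicate 1 this summit was 38 bp into the gene, which is also within 500 bp of the CG5521 start. That replicate 1 call overlapped both pooled calls. In replicate 3 the summit was 149 bp into the gene and not within 500 bp of the CG5521 start. The unshared placing thus holds in the pooled list and replicate 3 only.

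Gr63a, which with Gr21a forms the carbon dioxide receptor, was the single gene whose pooled call was entirely shared with another gene. Gr63a starts at 3896603 on 3L on the minus strand, 297 bp from the start of Lamtor4, a subunit gene of the lysosomal Ragulator complex on the other strand. The call (3L, 3896646 to 3897069, signal 66.2, rank 7536) had its summit 255 bp from Gr63a and 42 bp from Lamtor4. It ranked 6791 in replicate 1 (signal 36.9) and 9982 in replicate 3 (signal 30.2). The pooled summit was thus nearer to the Lamtor4 start. The partner gene Gr21a had no call, the nearest being 38546 bp away (rank 820).

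The stretch between the Gr63a and Lamtor4 starts is shown because 1 call lies at the starts of both genes there; it and the sequences further on were read 5′ to 3′ from RefSeq's Release 6 (dm6) assembly. Capitals mark the M1BP element, GGTCACAC, read here on the other strand as GTGTGACC, and the core of the DNA replication-related element (DRE), TCGATA.
Lamtor4 to Gr63a (chr3L:3896603-3896902, minus strand): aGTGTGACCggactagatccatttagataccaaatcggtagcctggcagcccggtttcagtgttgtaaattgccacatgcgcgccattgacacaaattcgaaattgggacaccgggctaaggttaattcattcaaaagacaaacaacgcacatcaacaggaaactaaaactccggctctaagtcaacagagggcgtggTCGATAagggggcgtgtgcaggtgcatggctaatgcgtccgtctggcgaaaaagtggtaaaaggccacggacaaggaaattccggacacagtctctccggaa
The M1BP element begins at base 2 of the stretch and covers the annotated start of Lamtor4, 43 bp from the summit, whereas the DRE core begins at base 199. Within 100 bp of the summit, this was the only one of the 13 receptor gene calls with the M1BP element, and 0 of 13 had the DRE octamer TATCGATA or its core. Among calls near any start, 5.20% had the M1BP element, 6.99% the DRE octamer and 20.4% its core, on either strand, every octamer counting also as a core.

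Gr39a, a receptor shared by most bitter-sensing neurons, gives rise to several transcripts from 4 starts and lies inside Mondo, the gene of a sugar-responsive transcription factor, on 2L. Its calls were at the most upstream start (21290734, plus strand), with summits in an exon 83 bp (rank 10777) and 312 bp (rank 27321) into the gene. Gr39a ranked 8808 in replicate 1 (signal 31.4) and 17758 in replicate 3 (signal 20.5), a wide gap between libraries. Gr93d (3R, 21845454 to 21846659, minus strand), which overlaps the antisense gene asRNA:CR44087, had calls at 145 bp (rank 13064) and 438 bp (rank 28377). It ranked 17728 in replicate 1 (signal 21.1) and 13837 in replicate 3 (signal 24.2). The call at Gr28b, whose transcripts include that of a warmth receptor, was 45 bp upstream of 1 of its 5 starts, in an intron (rank 23810), and was present in replicate 3 (rank 24489) but not in replicate 1.

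The other groups of gustatory receptors had few calls or none. Of 9 sugar receptor genes (Gr5a, Gr43a, Gr61a and Gr64a to Gr64f), 0 had a pooled call, and Gr5a, a trehalose receptor gene, had one in replicate 1 alone (rank 25209). Of the 5 receptors common to bitter neurons, Gr39a had a pooled call. Gr89a of the same group missed the distance narrowly, with a pooled summit at 517 bp (rank 12702), and had a call at 495 bp in replicate 1 (rank 10559). The genes nearest to the limit of 500 bp were Or2a inside it, at 484 bp, and Or13a, Gr89a and Gr39b outside it, at 513, 517 and 521 bp.

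The sequence around the summit is given for the strongest pooled calls of receptor genes that no other start shares. They are shown because 4 of these summits fall in exons of the receptor itself. Each line runs along the gene, with the 21 bases centred on the summit in capitals.
Gr97a (chr3R:26966264-26966464, minus strand): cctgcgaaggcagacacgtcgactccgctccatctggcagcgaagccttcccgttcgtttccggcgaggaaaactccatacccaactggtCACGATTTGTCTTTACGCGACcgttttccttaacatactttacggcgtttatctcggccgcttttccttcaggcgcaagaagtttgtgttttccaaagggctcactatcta
Gr39a (chr2L:21290717-21290917, plus strand): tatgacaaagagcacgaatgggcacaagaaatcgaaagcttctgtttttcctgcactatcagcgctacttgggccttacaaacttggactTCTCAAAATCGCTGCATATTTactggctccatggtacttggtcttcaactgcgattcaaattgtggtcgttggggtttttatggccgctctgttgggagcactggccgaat
Gr93d (chr3R:21846414-21846614, minus strand): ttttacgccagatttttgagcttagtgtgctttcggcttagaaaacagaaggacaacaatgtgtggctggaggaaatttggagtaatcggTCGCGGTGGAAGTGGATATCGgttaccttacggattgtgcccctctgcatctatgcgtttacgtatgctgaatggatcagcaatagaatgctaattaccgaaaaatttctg
Or82a (chr3R:4257001-4257201, plus strand): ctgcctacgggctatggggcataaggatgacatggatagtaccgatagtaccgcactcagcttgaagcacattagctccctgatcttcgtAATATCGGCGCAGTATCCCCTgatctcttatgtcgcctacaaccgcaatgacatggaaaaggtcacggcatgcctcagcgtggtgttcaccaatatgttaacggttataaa
The DRE, its core, the M1BP element and the Zelda site CAGGTAG were absent from all 4 of these stretches on both strands. This says only that these letters do not occur there.

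The replicates agreed on fewer receptor genes than they listed. Replicate 1 had a call at 10 receptor genes and replicate 3 at 12, where 45.6% and 45.5% of all genes had one. Calls in both lists were found at 5 genes (4.17%, against 39.1% of all genes), namely Gr97a, Gr63a, Gr39a, Gr93d and Or82a, which were also the 5 best by pooled rank. The pooled list holds the reads of both replicates, so this match is partly built in and is not separate support. A call in at least 1 list was found at 17 receptor genes, so that 29.4% of these had it in both, where the figure was 75.2% for all genes. Ranks were not matched in this comparison, and the median best pooled rank was 13500 for receptor genes and 5444 for all genes. What part rank has in the lower figure was not tested. Of the 17, 8 had no pooled call at the start, and 6 of the 8 had a rank beyond 20000 in the 1 list that placed them within 500 bp, namely Or88a, Gr8a, Gr77a, Gr5a, Gr47b and Gr93a, named here after their values were seen. The other two were Gr89a (rank 10559) and Gr39b (rank 19880), both in replicate 1. In no list was the call at any of the 17 starts among the 4402 strongest calls. The remaining 103 of 120 genes had no call at a start in any of the 3 lists.

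**Figure D3:**
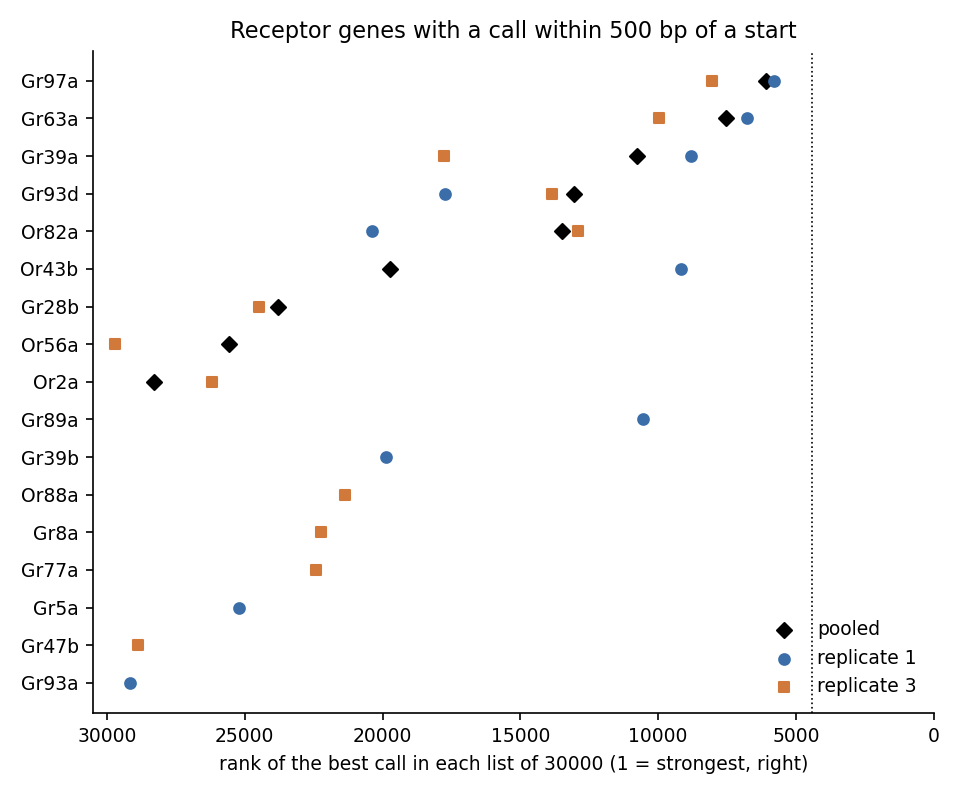
Rank of the best call within 500 bp of a start in the pooled list (black), replicate 1 (blue) and replicate 3 (orange) for the 17 receptor genes with a call in any of them. The x axis is reversed, with strong calls to the right, and the dotted line marks rank 4402. All points lie to the left of that line, and a missing symbol means no call in that list.

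Farther from the starts, 4 of 120 receptor genes had an optimal peak within 1000 bp (3.33%, against 22.0% of all genes), 2 of them inside the gene. These were named after their values were seen. Or13a, a receptor for the mushroom odour octenol, had an optimal peak in its own intron, 513 bp from the start (X, 15974726 to 15975149, signal 104.4, rank 3917). It ranked 4315 in replicate 1 (signal 48.3) and 4182 in replicate 3 (signal 54.8), so both libraries placed it just within their 4402 strongest calls. Gr39b had one in its own exon, 755 bp from the start (2L, 21368739 to 21369162, signal 111.3, rank 3536), with ranks of 2789 in replicate 1 (signal 61.2) and 4822 in replicate 3 (signal 49.8). Neither summit was within 500 bp of any annotated start. The other two lay between genes and within 500 bp of a start of another gene. The peak 681 bp from Or88a, a pheromone receptor gene, was at the start of CG12402 (rank 780, and 714 and 883 in the replicates), and the one 992 bp from Or9a was at that of Neb-cGP (rank 1547, and 1718 and 1499).

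Both peaks inside receptor genes are shown along the gene, with 21 bases at the summit in capitals, since they are the strongest calls within any receptor gene. They also lacked the DRE, the M1BP element and the Zelda site on both strands.
Or13a (chrX:15974838-15975038, plus strand): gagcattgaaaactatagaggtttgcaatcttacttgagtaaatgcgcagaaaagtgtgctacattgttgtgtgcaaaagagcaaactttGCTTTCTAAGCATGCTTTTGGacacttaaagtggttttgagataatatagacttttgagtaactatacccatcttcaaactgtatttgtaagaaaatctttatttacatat
Gr39b (chr2L:21368851-21369051, minus strand): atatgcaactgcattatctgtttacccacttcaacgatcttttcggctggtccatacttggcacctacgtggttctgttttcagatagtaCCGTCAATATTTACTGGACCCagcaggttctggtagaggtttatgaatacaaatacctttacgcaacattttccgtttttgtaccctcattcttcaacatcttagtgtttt

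**Figure D4:**
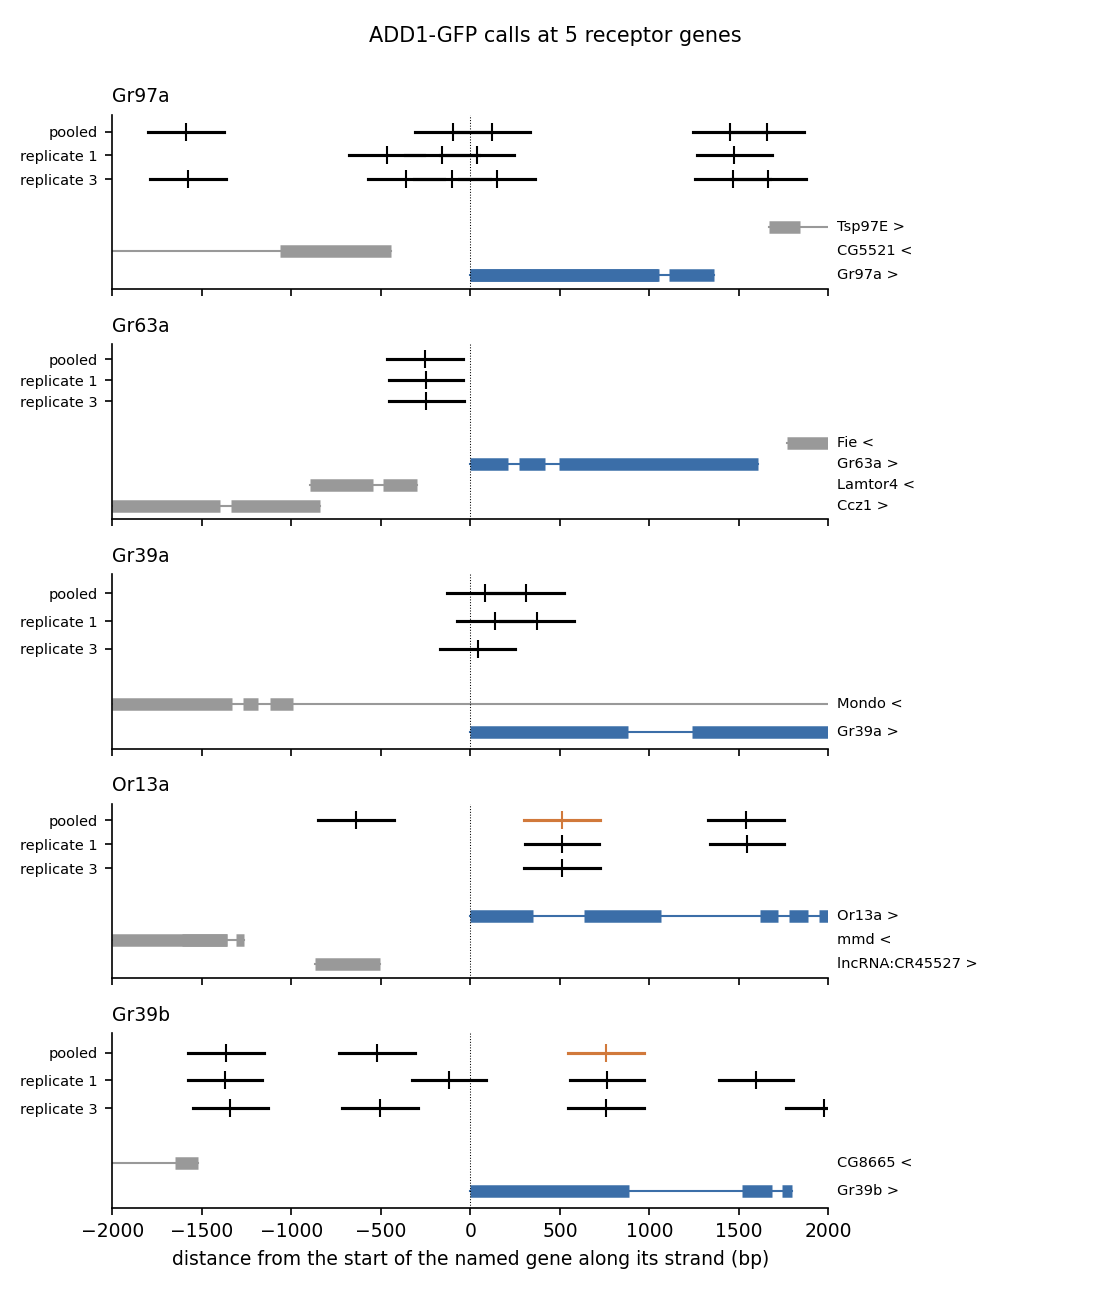
Maps of 5 receptor genes with distance from the start along the strand (x axis, bp). Horizontal bars are calls in the pooled list and in each replicate, with a tick at the summit and optimal peaks in orange. Boxes are exons of receptor genes (blue) and other genes (grey), with > for the same strand and < for the other. At Gr63a the single call sits between the receptor and Lamtor4 in all 3 lists, while at Or13a and Gr39b the optimal peaks are 513 and 755 bp into the gene.

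Receptor genes also lay farther from calls than genes as a whole did, and so did their neighbours and other chemosensory genes. The median distance from a start to the nearest pooled summit was 6980.5 bp for receptor genes and 864.0 bp for all genes, and to the nearest optimal peak 19028.5 and 7844.0 bp. For the nearest genes outside the list these medians were 5065.5 and 20125.0 bp. They were 7014.5 and 19810.5 bp for ionotropic receptor genes, and 5181.5 and 11262.0 bp for genes of odorant binding proteins. Within 10000 bp, 54.2% of receptor genes and 81.2% of all genes had a pooled summit, and 28.3% and 55.3% had an optimal peak. The median distance to a pooled summit was 10994.0 bp for Or genes and 5095.0 bp for Gr genes. By span, 11 of 120 receptor genes had a pooled summit anywhere inside them, beside 33.6% of protein-coding genes, and 2 had an optimal one, beside 10.5%. The 11 include 5 without a call at a start (Gr39b, Or13a, Or67c, Or7a and Or88a, listed after their values were seen). Receptor genes are short, with a median span of 1445.0 bp against 2164.5 bp for protein-coding genes.

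**Figure D5:**
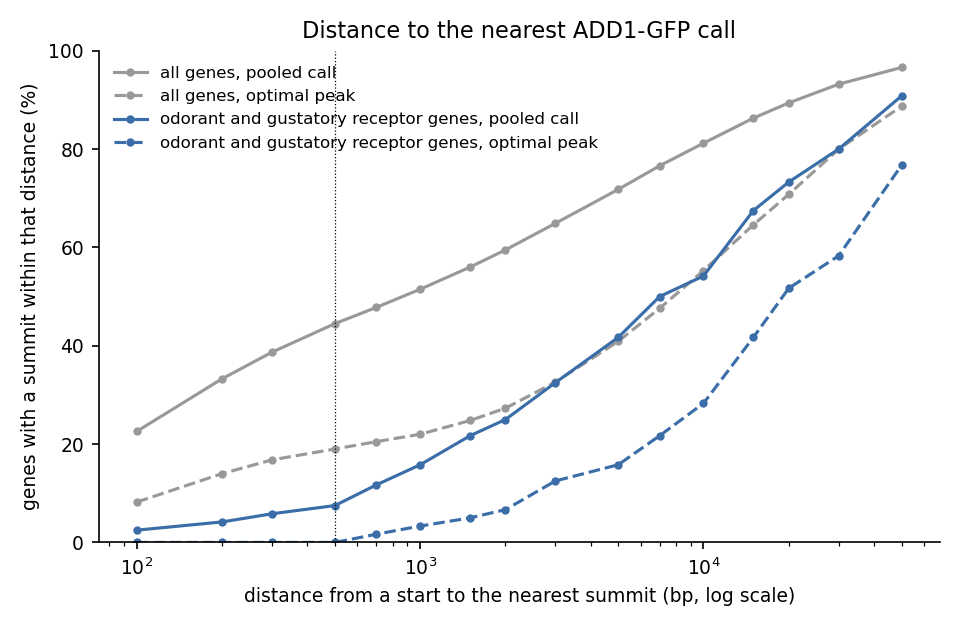
Percentage of genes (y axis) with a summit within a given distance of a start (x axis, bp, log scale), for all genes (grey) and the 120 receptor genes (blue), for pooled calls (solid) and optimal peaks (dashed). The dotted line is 500 bp. The curves for receptor genes run below those for all genes at every distance plotted, with 54.2% against 81.2% for pooled calls at 10000 bp.

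Most receptor genes had no close start of a gene outside the list, and the share with a call was low with and without such neighbours. A total of 99 had no start of a gene outside the list within 1000 bp, and 7 of them had a pooled call (7.07%), beside 34.2% of all genes so placed. Starts of other receptor genes were not counted, so the 99 include receptor genes that lie beside each other. For genes outside the list, related neighbours did count, so the comparison is not fully alike. None of the 99 had an optimal peak, beside 10.6%. Of the 21 with a close neighbour outside the list, 2 had a pooled call (Gr97a and Gr63a, 9.52%), beside 54.6% of all genes so placed. Optimal peaks were at 0 of the 21, beside 27.2%. The nearest genes outside the list, 94 in number, had a pooled call in 30 cases (31.9%) and an optimal peak in 8 (8.51%). Of receptor genes lying within the span of another gene, 2 of 24 had a call, and of the others 7 of 96, where the shares over all genes were 29.0% and 48.8%. A total of 47 receptor genes formed 17 runs of neighbouring receptor genes, of up to 5. Calls were at 1 of the 47 and at 8 of the 73 that stood singly, beside 44.5% of all genes. The share over all genes in or outside such runs was not measured, so this split is not read as a result. By arm, the genes with a call numbered 2 of 27 on 2L, 2 of 28 on 2R, 1 of 22 on 3L, 3 of 29 on 3R and 1 of 14 on X. The share over all genes on each arm was not measured, so these counts are not read as a result.

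Features of the annotation and sequence that may bear on these counts were measured as well. In 82 of the 120 genes every annotated transcript began at its first coding base, as did 3.59% of protein-coding genes; for such genes the annotation gives no sequence ahead of the coding part, and distances are from the first coding base. Windows of 500 bp on either side of a start were unique in the assembly (all 32-mers occurring once) for 114 of 120 genes, and 8 of the 114 had a call (7.02%), beside 46.4% of all genes with unique windows. Or19a and Or19b are near-identical copies whose windows were 16.3% unique, so most 32-mers there do not tell the copies apart. From 250 bp before to 50 bp after the 135 starts, GC content was 40.0% ± 5.67 (SD across starts), and 40.1% ± 7.93 over starts of protein-coding genes. In the same windows, read on both strands, the DRE octamer was found at 1 of 135 receptor gene starts (0.741%, Gr68a), its core at 14.8%, the M1BP element at 0 and the Zelda site at 1 (0.741%, Or65b). Over all starts these shares were 6.78%, 23.0%, 5.63% and 1.68%.

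Other genes of the chemosensory pathway are given for comparison, again with no test of the lists. Of 66 ionotropic receptor genes, a separate family of chemoreceptors, 5 had a pooled call (7.58%) and 1 an optimal peak. This was Ir31a (signal 118.1, rank 3198), whose call was also within 500 bp of starts of CG17768 and LSm-4. The next were Ir60e (rank 10461, shared with CG13585), Ir41a, an amine-sensing receptor gene (13283), and Ir67c (17019). Of 52 genes of odorant binding proteins, which carry odorants in the sensillum lymph, 5 had a call (9.62%), namely Obp99b (signal 136.5, rank 2484, an optimal peak shared with no other gene), Obp28a (17586), Obp83cd (20506), Obp56f (29354) and 1 weaker. Of 7 rhodopsin genes, 3 had a weak call (ninaE at rank 17818, Rh4 and Rh5) and 0 an optimal peak. The pooled share was 42.9% (exact interval 9.90 to 81.6%), near the 44.5% of all genes.

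Over all genes, 44.5% had a pooled call and 19.0% an optimal peak. Factors reported to set which receptor a neuron makes had calls at 6 of the 8 genes matched out of 9 named (75.0%, exact interval 34.9 to 96.8%). Optimal peaks were at 2 of the 8 (25.0%, exact interval 3.19 to 65.1%), near the share of all genes. These were Xbp1, the transcription factor of the unfolded protein response (signal 286.8, rank 436), and lola, a zinc finger gene (signal 155.6, rank 1901, 500 bp from a start). They were followed by the POU factor gene pdm3 (rank 4440) and onecut (rank 5642). Of 9 genes of the Myb-MuvB and dREAM complexes, known to control expression of the carbon dioxide receptors, 8 had a call (88.9%, exact interval 51.8 to 99.7%). Optimal peaks were at 4 (44.4%, exact interval 13.7 to 78.8%), namely Dp (rank 834), Myb (864), E2f2 (3596) and mip40 (4176). For Dp, Myb, E2f2 and mip40 the call was also within 500 bp of a start of another gene. Most of these counts rest on few genes, and their exact intervals are wide in the plot of shares.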

How the data were processed

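Anti-GFP ChIP-seq peak lists of 2 libraries were used, on the dm6 build. Peaks and background were called by the authors against a shared control, once per replicate and once on the pooled alignments, and compared by IDR, per the labels' file lists. Which aligner and caller they used is not given in the sources used here. For each call, the signal and its −log10 q-value are as deposited by the authors. Signal depends on the library, so ranks within a list were used. Read depth is unknown, and its effect on weak calls could not be assessed.

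Genes and starts came from Ensembl release 115, without transposable elements, and sequence from RefSeq's Release 6 assembly. Scripts ran in Python 3.11.15 with pandas 2.3.3, numpy 2.4.6 and scipy 1.17.1, and figures were drawn with matplotlib 3.10.9. The dm3 lists were not used, since builds were not mixed. The symbol fer1 did not match the annotation. Exact Clopper-Pearson intervals at 95% cover counting error only, and neighbouring genes can share calls. Replicate matching of a call needed an overlap of 50% of the shorter one, and the strongest match was taken. Distance counts were tested on simulated calls placed at known positions. Genes were named by rule: Orco, genes with an optimal peak, the best ranked calls, the receptor groups, those at the distance limit, and up to 4 per other list; exceptions are stated. Other distances, call placement, list depth, neighbour definitions, matching rules and single replicates were tried as alternatives. The members and lists were chosen with earlier results of these data known. With a single group, no differences were tested.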

Additional observations from a re-analysis of the deposited data

How the results depend on the processing

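Among 120 receptor genes, counts moved with the distance rule. With 200 bp, the pooled calls were at 5 genes, 0 of them entirely shared, with 4 apart from genes outside the list. With 1000 bp they were at 19 genes (8 entirely shared, 13 apart, 12 in both replicates), and optimal peaks at 4. With any overlap of the interval they were at 14 (3 shared, 11 apart, 9 in both replicates), and optimal peaks at 2. With the first 15000 pooled calls, 5 genes remained, 3 of them apart; all 5 were among the 9. With each replicate's list alone, 10 to 12 genes had a call, 7 to 10 were apart, 1 to 2 were entirely shared, the median rank was 14143.5 to 21789.0, and the count among the 4402 strongest calls was 0. The list of replicate 1 held 6 of the 9 genes and that of replicate 3 held 8. The middle of the interval, the most upstream start, 1 call per run, other definitions of neighbours, sharing or matching, and genes with unique windows (added after the data were seen) kept the counts recomputed under them within 1.5 times; 1 call per run was applied to the pooled count and ranks alone, and unique windows not to entirely shared calls. The cause of these shifts was not tested. No paired analysis was possible because there is 1 group.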

Other observations

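The receptor genes farthest from any pooled call, picked after their values were seen, were Or35a (108260 bp from its start, on 2L), Or23a (68614 bp, on 2L) and Or63a (67677 bp, on 3L). Their windows were unique in the assembly. The call nearest to Or23a was an optimal peak of rank 993.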
